A study of Mus musculus with 4 samples.

Results

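The genes encoded on the mitochondrial chromosome were compared between control and Usp28 KO mouse embryonic stem cells. They were taken as every gene that the read count table places on chrM of the mm10 genome build, which gave 37 of 55401 genes. The set holds 13 messenger RNAs, 2 ribosomal RNAs and 22 transfer RNAs. Of these, 28 are annotated on the plus strand, and 9 (mt-Nd6 and 8 transfer RNAs) on the minus strand.

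The cells were of the R1 line, a mouse embryonic stem cell line. The control group (CTL) is labelled WT, the other group is labelled Usp28 KO, and each has 2 libraries. Both groups grew on 0.2% gelatin in N2B27 medium with 1 μM PD0325901, which blocks MEK, 3 μM CHIR99021, which blocks GSK3, and 10 ng/ml of the cytokine LIF, a combination called 2i/LIF. RNA that carries a poly(A) tail was captured on oligo(dT) beads, starting from 1 μg of RNA whose integrity number had to reach 6.5. The labels name neither the edited allele nor the number of clones, and nothing in them ties a library to a culture of its own. The p-values below therefore set the group difference only against the variation among these libraries, and that variation may be technical.

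Mitochondrial DNA is copied from both strands into long RNAs that are cut into single transcripts, largely at the transfer RNAs that lie between the other genes. Its messenger RNAs encode core subunits of respiratory complexes I, III and IV and of the ATP synthase, complex V, and its ribosomal and transfer RNAs serve the ribosomes that translate them inside the organelle. Every other protein needed for this, including the polymerase POLRMT and most respiratory subunits, is encoded in the nucleus. Most mitochondrial messenger RNAs receive a poly(A) tail, and in several of them the tail supplies the last bases of the stop codon.

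The libraries held 16595196 to 19533608 counts. A level is given as CPM, reads per 1e6 counts after TMM scaling, the trimmed mean of M values method, and a log2 fold change is Usp28 KO minus CTL. Usp28 itself had 189 and 197 CPM in the CTL libraries and 181 and 177 CPM in the Usp28 KO libraries, so its level does not check the label, and each direction below is between libraries as labelled. All 9 embryonic stem cell markers were detected, with Pou5f1 at 626 and 482 CPM in CTL and 587 and 505 CPM in Usp28 KO libraries. None of the 9 passed the test described below. In 2 of them, Tfcp2l1 and Zfp42 (log2 fold changes of -0.54 and -0.33), both Usp28 KO libraries lay below both CTL libraries, where 20.4% of all genes did. In 1, Tdgf1 (0.40), both lay above, where 21.4% of all genes did. These 3 are named after their values were seen. The 7 fibroblast markers summed to between 0.563 and 1.07 CPM, with Dcn, Lum and Postn at 0 in all 4 libraries. The 6 trophoblast markers summed to 15.6 to 27.9 CPM and the 6 primitive endoderm markers to 8.32 to 12.49 CPM, and both sums overlapped between the groups. Single markers did not all overlap. Of 2 trophoblast markers tested, Tfap2a was lower in both Usp28 KO libraries (log2 fold change -0.99). Of 4 primitive endoderm markers tested, Sox7 was lower in both on few reads (-1.43) and Gata4 higher (0.36). None of these passed the test. CTL replicate 2 and Usp28 KO replicate 2 stood apart in opposite ways in base composition. The rank correlation across genes between GC content and a library's deviation from the other libraries was -0.382 and 0.372 in them, against 0.0127 and 0.0444 in the libraries numbered 1.

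Of the 13 messenger RNAs, 7 have a near-identical partner in the nuclear genome, and this bears on which of their reads a gene-level count can place. The partners are 7 unprocessed pseudogenes on the minus strand of chromosome 1, side by side between 24611535 and 24616197. Over their whole aligned length mt-Co2, mt-Atp6, mt-Co3, mt-Nd4l and mt-Nd4 match them letter for letter, mt-Nd4 over 876 bases only. The other 2, mt-Nd3 and mt-Co1, differ from their partners at 1 letter each, and these letters are shown because they are all that separates the reads of gene and copy there. Positions count from the first base of the mitochondrial gene, the substitution is T3C in mt-Nd3 and A1066T in mt-Co1, and the capital marks the differing letter (transcripts of GENCODE M21, GRCm38, which is mm10).
mt-Nd3: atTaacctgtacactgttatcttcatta
Gm28438: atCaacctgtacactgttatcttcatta
mt-Co1: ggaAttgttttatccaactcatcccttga
Gm29216: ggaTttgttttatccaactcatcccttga
The pseudogenes took reads of their own in the deposited counts. Gm28438 held 258 and 338 counts in CTL and 203 and 97 in Usp28 KO libraries, while mt-Nd3 held 13 and 9 in CTL and 10 and 6 in Usp28 KO libraries. Summed over all 4 libraries, Gm28661 held 3466 counts beside 4018 for mt-Co2, and Gm10925 held 3113 beside 2423 for mt-Atp6. How the authors treated reads that match several places is not given in the sources used here, so the values of these 7 genes are uncertain, and least so for mt-Co1 and mt-Nd4, whose copies cover 31.3% and 63.6% of the gene.

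Where the level is set against gene length, the messenger RNAs fall into separate ranges. The 5 messenger RNAs without such a copy and away from the copied block (mt-Nd1, mt-Nd2, mt-Nd5, mt-Nd6 and mt-Cytb) had 1614 to 4646 CPM per kilobase (kb) as the mean of the 4 libraries. The 5 whose copy spans at least 95% of the gene had 1.5 (mt-Nd3) to 124 (mt-Nd4l) CPM per kb, and the medians of these sets differed 44.28-fold. Adding the reads of the copies left mt-Co2 at 156.9, mt-Atp6 at 114.5, mt-Co3 at 65.3, mt-Nd3 at 37.8 and mt-Nd4l at 141.2 CPM per kb, all below the 1614 CPM per kb of mt-Nd6. Reads that match gene and copy alike may have been left out of both counts, and such a sum cannot restore them. The part of the copies in these levels was not tested. mt-Atp8 has no annotated near-identical copy but lies inside the copied block. Most of it is in the 230 bases between mt-Co2 and mt-Atp6, where the chromosome 1 copies are 233 bases apart. Its last 43 bases overlap mt-Atp6, whose copy matches them letter for letter. mt-Atp8 stood at 12.0 CPM per kb, and the sequence of the nuclear gap was not analysed here.

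The order of the 7 abundant messenger RNAs per length was the same in 3 of 4 libraries: mt-Co1, mt-Nd1, mt-Cytb, mt-Nd5, mt-Nd2, mt-Nd6, mt-Nd4. In Usp28 KO replicate 1, mt-Cytb (1998 CPM per kb) was above mt-Nd1 (1973 CPM per kb). The gap from mt-Co1 to the next gene was the widest, at 8725 against 3334 CPM per kb in CTL replicate 1 and 9877 against 4370 in Usp28 KO replicate 2. mt-Nd5 and mt-Nd2 lay close together in every library, at 1629 and 1578 CPM per kb in CTL replicate 1 and at 2165 and 2163 in Usp28 KO replicate 2. Each gene's range over the 4 libraries overlapped that of its neighbours in this order, so the order holds within libraries and not between them. For mt-Co1 and mt-Nd1 the overlap lay between mt-Co1 at 6281 CPM per kb in Usp28 KO replicate 1 and mt-Nd1 at 8906 in CTL replicate 2. mt-Co1 ranked first or second by CPM among 15341 genes in each library, and 4 to 7 of the 37 members were among the 50 genes with the highest CPM.

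**Figure D1:**
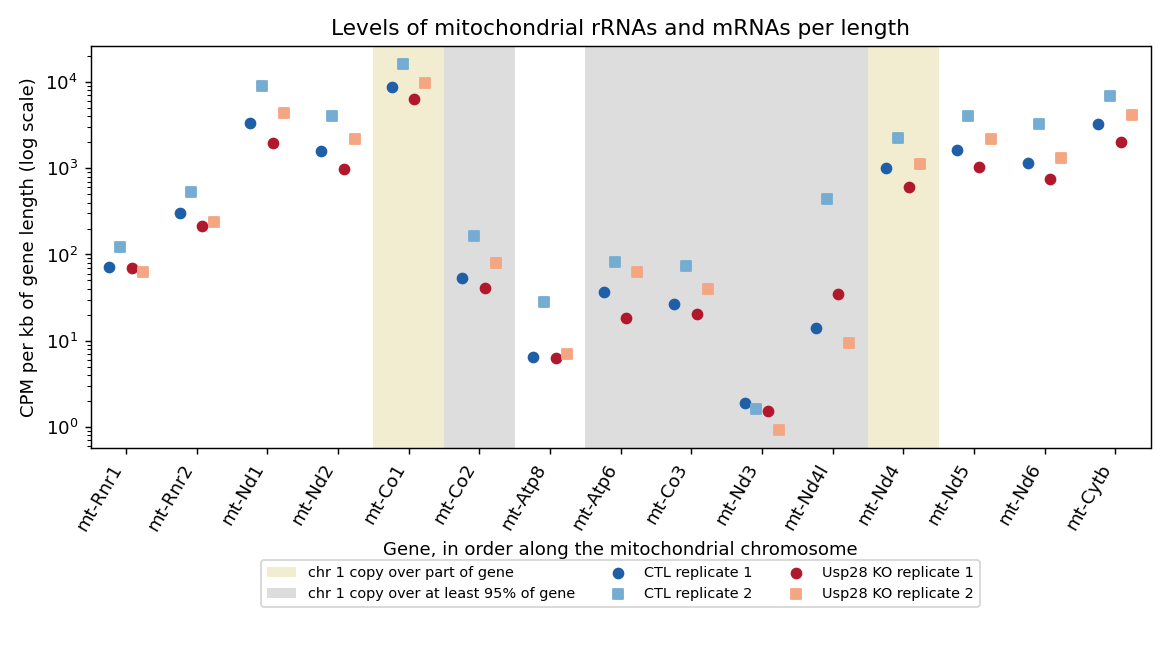
Level of the 13 messenger RNAs and 2 ribosomal RNAs in each library, in CPM per kb of gene length on a log axis, in order along the mitochondrial chromosome; shading marks genes with a near-identical copy on chromosome 1. The genes with a copy over at least 95% of their length sit at means of 1.5 to 124 CPM per kb, below the 1614 to 4646 CPM per kb of 5 of the 6 messenger RNAs without a copy, and the sixth, mt-Atp8, sits at 12.0 CPM per kb.

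The share of all counts on chrM differed as much between replicates as between groups. It was 2.77% and 5.65% in the CTL libraries and 1.92% and 3.33% in the Usp28 KO libraries (exact binomial 95% intervals 2.76 to 2.78, 5.64 to 5.66, 1.91 to 1.93 and 3.32 to 3.33, which cover counting error only). CTL replicate 2 was the highest library and Usp28 KO replicate 1 the lowest, while Usp28 KO replicate 2 lay above CTL replicate 1, so the groups overlapped. In CPM the Usp28 KO mean was 0.595 times the CTL mean. The ratio was 0.667 between the libraries numbered 1 and 0.561 between those numbered 2, whereas CTL replicate 2 held 2.13 times CTL replicate 1 and Usp28 KO replicate 2 held 1.79 times Usp28 KO replicate 1. With 2 libraries against 2, a two-sided exact permutation test cannot go below 0.33, and no test was run on this sum. In bulk RNA, fewer cells of a kind and less RNA per cell cannot be told apart.

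By class, messenger RNAs made up 97.7% to 98.6% of the chrM counts. They took 2.71% and 5.56% of all counts in CTL and 1.88% and 3.28% in Usp28 KO libraries, and again the groups overlapped. The ribosomal RNAs took 0.0553% and 0.0904% in CTL and 0.0417% and 0.0441% in Usp28 KO libraries, and here both Usp28 KO libraries lay below both CTL libraries. The transfer RNAs took 0.00325% and 0.00491% in CTL and 0.00277% and 0.00213% in Usp28 KO libraries, also without overlap. The classes parted in Usp28 KO replicate 2: against Usp28 KO replicate 1 its CPM was 1.81 times as high for messenger RNA, 1.1 times for ribosomal RNA and 0.797 times for transfer RNA. Between the CTL libraries all 3 classes were higher in replicate 2, by 2.14, 1.71 and 1.58 times. The ratios of the group means were close to each other, at 0.596 for messenger, 0.561 for ribosomal and 0.573 for transfer RNA. The ratios within a replicate number were less alike. Between the libraries numbered 1 they were 0.666, 0.726 and 0.823 in the same order, and between those numbered 2 they were 0.563, 0.465 and 0.415.

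**Figure D2:**
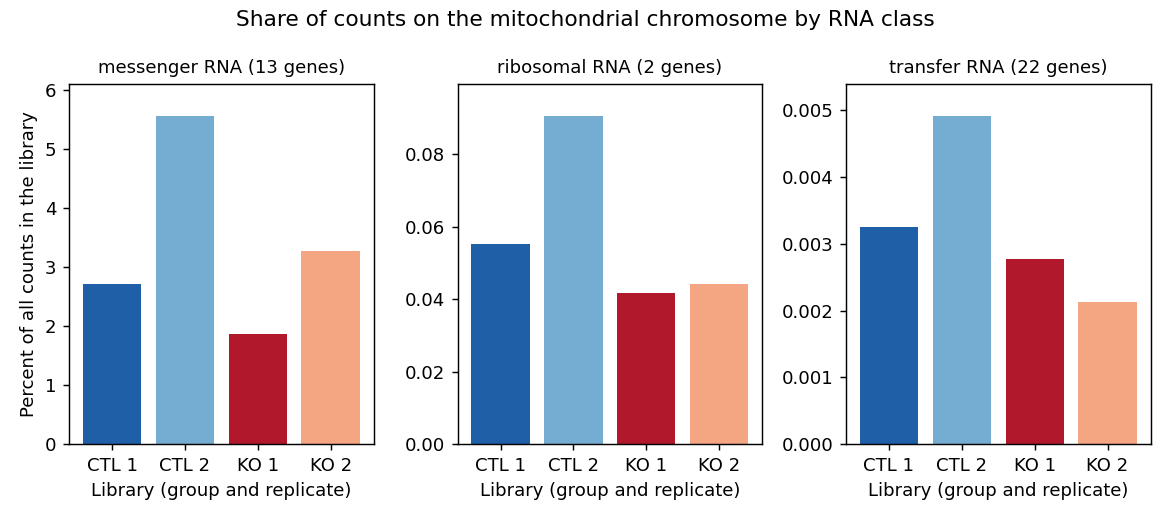
Percent of all counts in each of the 4 libraries taken by mitochondrial messenger, ribosomal and transfer RNA, with a separate axis from 0 for each class. Usp28 KO replicate 2 is above CTL replicate 1 for messenger RNA (3.28% and 2.71%) and below it for ribosomal RNA (0.0441% and 0.0553%) and transfer RNA (0.00213% and 0.00325%).

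All 15 messenger and ribosomal RNAs and 8 of the 22 transfer RNAs passed the filter on low counts, and none of these 23 passed the test at an adjusted p of 0.05 (edgeR quasi-likelihood test, Benjamini-Hochberg over 15341 genes), where 0% of all genes did. The adjusted p ran from 0.161 (mt-Ts2) to 0.973 (mt-Tn). At an unadjusted p under 0.05 edgeR placed 7 members lower, 30.4% of those tested, and 0 higher, against 4.34% of all genes lower and 6.86% higher. DESeq2 passed 1 member, mt-Rnr2 (log2 fold change -0.88, adjusted p = 0.0277), and limma-voom passed 0. Of the 12961 genes to which DESeq2 gave an adjusted p, it placed 0.393% lower at that threshold. It gave no adjusted p to mt-Nd3, mt-Ts2 and mt-Tl2. The log2 fold change was below 0 in 22 of 23 members (95.7%) against 50.6% of all genes. Most members vary together with the chrM total of each library, so these shares do not count independent genes. The median over the 23 was -0.84 on the log2 scale, beside -0.0040 over all genes tested. This median was -1.31 without CTL replicate 1, where edgeR called 14 members lower beside 0.586% of all genes, and -0.12 without CTL replicate 2, where it called 0 beside 0.235%. It was -0.68 without Usp28 KO replicate 1, with 3 members called lower beside 0.193% of all genes, and -1.36 without Usp28 KO replicate 2, with 7 beside 1.25%. In these fits 1 group is a single library, taken to vary like the 2 libraries of the other group. The median GC content of the 23 members was 35.98%, below the 49.73% of all genes tested. With each library's trend on GC content taken up in the fit, the median was -0.51 and 0 members were called by edgeR.

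The groups did not overlap in CPM for 7 of the 23 members, all with both Usp28 KO libraries below both CTL libraries (30.4%, against 20.4% of all genes). They were mt-Rnr1, mt-Rnr2, mt-Nd3 and the transfer RNAs mt-Tl1, mt-Tw, mt-Th and mt-Ts2. None lay the other way, where 21.4% of all genes did. Taken library by library over the 15 messenger and ribosomal RNAs, 14 were lower in Usp28 KO replicate 1 than in CTL replicate 1, the exception being mt-Nd4l, and all 15 were lower in each Usp28 KO library than in CTL replicate 2. Only 4 (mt-Rnr1, mt-Rnr2, mt-Nd3 and mt-Nd4l) were lower in Usp28 KO replicate 2 than in CTL replicate 1. Between the CTL libraries themselves, 14 of the 15 were higher in replicate 2, mt-Nd3 being the exception. Of all genes tested, 47.8% to 50.5% were lower in each of these library pairs.

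**Figure D3:**
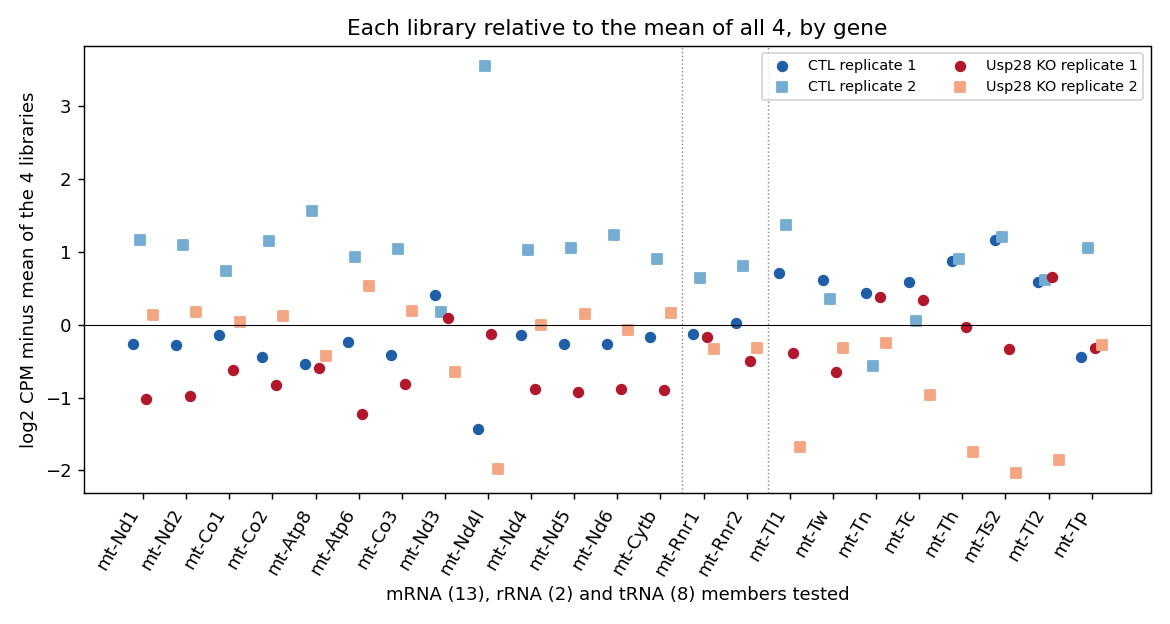
Log2 CPM of each of the 23 tested members in each library minus the mean of the 4 libraries, grouped as messenger, ribosomal and transfer RNA by dotted lines. CTL replicate 2 is highest for most messenger RNAs, Usp28 KO replicate 2 lies above CTL replicate 1 for 11 of the 13 and below it for both ribosomal RNAs.

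Complex I, the NADH dehydrogenase that passes electrons to ubiquinone and pumps protons, takes 7 subunits from this genome, all in its membrane arm. mt-Nd1 (chrM, 2751 to 3707), which helps form the ubiquinone-binding chamber, had 3191 and 8523 CPM in CTL and 1888 and 4182 CPM in Usp28 KO libraries. mt-Nd5 (11742 to 13565), a pump subunit at the far end of the arm, had 2972 and 7431 CPM in CTL and 1886 and 3948 CPM in Usp28 KO libraries. mt-Nd4 (10167 to 11544), another pump subunit, had 1382 and 3121 CPM in CTL and 833 and 1532 CPM in Usp28 KO libraries. In all 3 the order of the libraries was the same, with Usp28 KO replicate 2 between the CTL libraries. The log2 fold changes were -0.95 ± 0.61 (SE) for mt-Nd1, -0.83 ± 0.57 for mt-Nd5 and -0.93 ± 0.46 for mt-Nd4, with edgeR adjusted p of 0.657, 0.676 and 0.544. mt-Nd2 (3914 to 4951), the third pump subunit, had 1638 and 4226 CPM in CTL and 1009 and 2245 CPM in Usp28 KO libraries and the same order, at -0.85 ± 0.60.

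mt-Nd6 (13552 to 14070) is the only messenger RNA annotated on the minus strand. It had 596 and 1682 CPM in CTL and 388 and 683 CPM in Usp28 KO libraries, which gave a log2 fold change of -1.09 ± 0.57 at an edgeR adjusted p of 0.583. Whether reads were counted by strand is not given in the sources used here, so RNA of the opposite strand, which runs on from mt-Nd5, cannot be told apart from mt-Nd6. The 2 shortest complex I genes both have a full chromosome 1 copy. mt-Nd3 (9459 to 9806) had 0.665 and 0.568 CPM in CTL and 0.535 and 0.320 CPM in Usp28 KO libraries, at -0.53 ± 0.60, and -1.08 with the reads of its copy added. mt-Nd4l (9877 to 10173) had 4.15 and 130.5 CPM in CTL and 10.2 and 2.83 CPM in Usp28 KO libraries. CTL replicate 2 alone set it apart, with 2069 counts against 53 to 191 in the other libraries. Its log2 fold change of -3.36 ± 2.34 (edgeR adjusted p = 0.727) was 0.64 without that library, and its chromosome 1 copy Gm10222 showed no such excess, with 150 counts in CTL replicate 2 and 43 to 104 elsewhere.

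Complex III, which passes electrons from ubiquinol to cytochrome c, takes only cytochrome b from mitochondrial DNA. Its gene mt-Cytb (14145 to 15288) had 3771 and 7920 CPM in CTL and 2286 and 4741 CPM in Usp28 KO libraries, which gave a log2 fold change of -0.73 ± 0.46 at an edgeR adjusted p of 0.627. The Usp28 KO libraries stood at 0.606 and 0.599 times the CTL library of the same number, the closest pair of such ratios among the 7 abundant messenger RNAs.

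Complex IV, cytochrome c oxidase, takes its 3 core subunits from this genome. mt-Co1 (5328 to 6872), the catalytic subunit where oxygen is reduced, had 13481 and 24871 CPM in CTL and 9704 and 15260 CPM in Usp28 KO libraries. Here too Usp28 KO replicate 2 was above CTL replicate 1, and the log2 fold change of -0.62 ± 0.31 did not pass (edgeR adjusted p = 0.496). mt-Co2 (7013 to 7696), which receives electrons from cytochrome c, had 36.9 and 110.7 CPM in CTL and 27.98 and 54.4 CPM in Usp28 KO libraries, at -0.84 ± 0.68. mt-Co3 (8607 to 9390), a core subunit without a metal centre, had 20.9 and 57.3 CPM in CTL and 15.9 and 31.6 CPM in Usp28 KO libraries, at -0.72 ± 0.59. With CTL replicate 2 left out, mt-Co2 and mt-Co3 stood at 0.15 and 0.17.

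Complex V, the ATP synthase, takes 2 subunits of its proton channel part from this genome, and their genes overlap by 43 bases. mt-Atp6 (7927 to 8607), the channel subunit, had 25.2 and 56.3 CPM in CTL and 12.6 and 42.8 CPM in Usp28 KO libraries, and its log2 fold change, -0.55 ± 0.77 at an edgeR adjusted p of 0.862, was 0.13 without CTL replicate 2 and 0.074 without Usp28 KO replicate 1. mt-Atp8 (7766 to 7969) had 1.33 and 5.74 CPM in CTL and 1.28 and 1.44 CPM in Usp28 KO libraries, at -1.35 ± 0.59 (edgeR adjusted p = 0.432). CTL replicate 2 alone stood apart in mt-Atp8, and without it the value was 0.024.

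Summed by complex, the Usp28 KO mean was 0.533 times the CTL mean for complex I, 0.601 for complex III, 0.650 for complex IV and 0.656 for complex V. Complex V rests on few reads, 260 to 984 counts a library. Complex IV rests almost wholly on mt-Co1, with 263375 of its 264504 counts in CTL replicate 1. Its sum and its share of chrM counts thus follow that gene. The balance of complexes within a library overlapped between the groups. Complex I genes took 35.3% and 42.5% of chrM counts in CTL and 32.5% and 37.9% in Usp28 KO libraries, and complex IV genes took 48.9% and 42.3% in CTL and 52.7% and 46.2% in Usp28 KO libraries. The ratio of complex I to complex IV counts was thus 0.723 and 1.003 in CTL and 0.617 and 0.821 in Usp28 KO libraries, with the higher value in replicate 2 of each group, which also has the higher chrM share. mt-Cytb kept a narrower range, 12.4% to 14.3% of chrM counts.

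**Figure D4:**
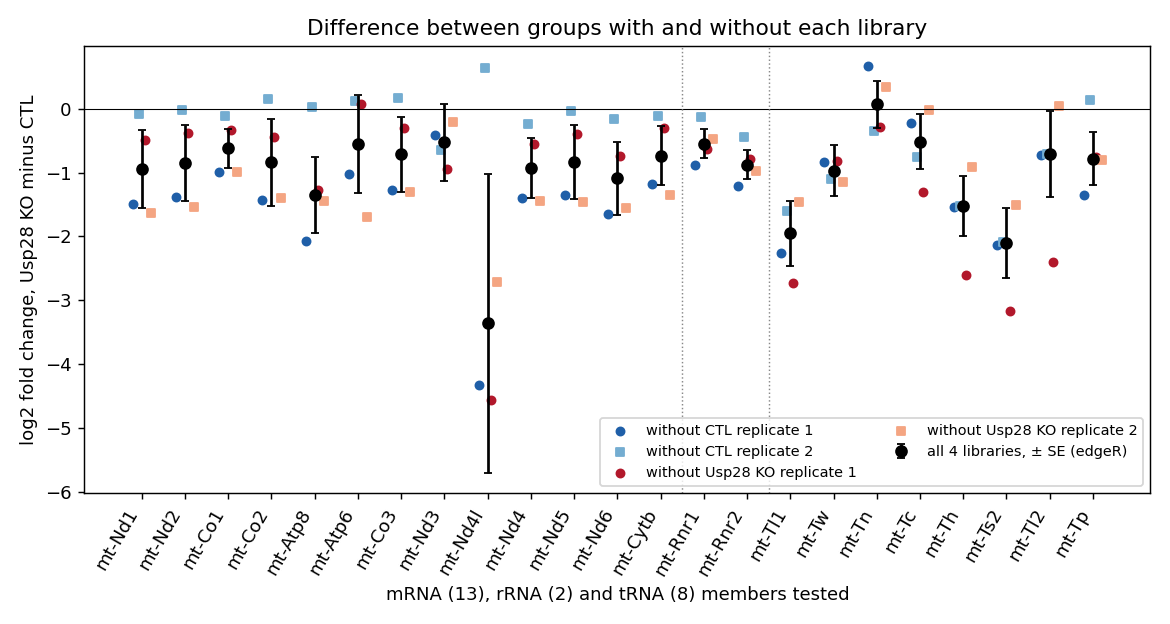
Log2 fold change of each tested member, Usp28 KO minus CTL: black points with SE from all 4 libraries (edgeR) and coloured points with each library left out. Without CTL replicate 2 most messenger RNAs lie near 0 (mt-Co2 at 0.15, mt-Co3 at 0.17, mt-Nd4l at 0.64), and the other points of these 3 genes lie below 0.

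In 3 of the 13 messenger RNAs the annotated gene ends 1 base past its last full codon, and in the other 10 it ends on a full codon. The ends are shown because the protein-coding frame there stops on the T of a stop codon that the poly(A) tail, which the capture step selects, is known to complete. The capital marks that T, and the lines give the 3′ end of each gene, 5′ to 3′ (GENCODE M21 transcripts, GRCm38).
mt-Co3: tacgtctccatttattgatgaggatctT
mt-Nd4: ccaaaactaattacaggcctgacaataT
mt-Cytb: gaagacaaaatactaaaattatatccaT
These 3 genes do not form a group by level, since mt-Cytb had 4090 and mt-Nd4 1246 CPM per kb, and mt-Co3, which has a full chromosome 1 copy, 40.1 CPM per kb. Their log2 fold changes of -0.73, -0.93 and -0.72 lay inside the range of the other messenger RNAs, -3.36 to -0.53.

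The ribosomal RNAs form the core of the mitochondrial ribosome and gave the smallest standard errors of all members. mt-Rnr2 (1094 to 2675), the large subunit RNA, had 485 and 829 CPM in CTL and 335 and 380 CPM in Usp28 KO libraries. mt-Rnr1 (70 to 1024), the small subunit RNA, had 68.2 and 116.3 CPM in CTL and 66.3 and 59.6 CPM in Usp28 KO libraries. In both genes the groups did not overlap, but in mt-Rnr1 the nearest pair, CTL replicate 1 and Usp28 KO replicate 1, stood at 68.2 and 66.3 CPM. The log2 fold changes were -0.88 ± 0.23 for mt-Rnr2 (edgeR adjusted p = 0.177) and -0.55 ± 0.23 for mt-Rnr1 (edgeR adjusted p = 0.387). Without CTL replicate 2 they were -0.45 and -0.13. With each library's trend on GC content taken up in the fit they were -0.51 and -0.22 (edgeR adjusted p of 0.421 and 0.662). Per 100 messenger RNA counts there were 2.04 and 1.63 ribosomal RNA counts in CTL and 2.22 and 1.35 in Usp28 KO libraries, so this ratio overlapped between groups. mt-Rnr2 counts were 7.11 and 7.13 times those of mt-Rnr1 in CTL and 5.05 and 6.39 times in Usp28 KO libraries.

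The transfer RNA genes, 59 to 75 bases long, were thinly covered. Of the 22, 4 (mt-Tf, mt-Ti, mt-Td and mt-Tg) had 0 counts in every library, 13 including these stayed under 10 counts in every library, and 9 reached 10. A count of 0 allows up to 0.154 to 0.189 CPM, the level of 3 counts. The filter kept mt-Tl2, whose highest count was 17, and left out mt-Ta, with 3 and 7 counts in CTL and 0 and 14 in Usp28 KO libraries. The reads that a gene-level count gives to such short genes can also come from longer RNA that spans them. The best covered were 3 minus-strand genes, mt-Tp for proline, mt-Tn for asparagine and mt-Tc for cysteine, shown whole with the anticodon in capitals (GENCODE M21 transcripts, GRCm38, strand of the gene, T for U).
mt-Tp: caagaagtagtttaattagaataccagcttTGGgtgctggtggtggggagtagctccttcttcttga
mt-Tn: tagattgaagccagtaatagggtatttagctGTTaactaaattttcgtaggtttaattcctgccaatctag
mt-Tc: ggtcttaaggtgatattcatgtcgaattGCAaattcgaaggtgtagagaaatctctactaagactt
mt-Tp (15356 to 15422), the outermost annotated gene, had 226 and 515 counts in CTL and 235 and 242 in Usp28 KO libraries, so CTL replicate 2 alone stood apart. Its log2 fold change was -0.78 ± 0.41 (edgeR adjusted p = 0.540) and 0.13 without that library. mt-Tn (5089 to 5159) had 109 and 44 counts in CTL and 100 and 65 in Usp28 KO libraries, and was the only member with a log2 fold change above 0, at 0.066 ± 0.37. mt-Tc (5192 to 5257) had 73 and 41 counts in CTL and 59 and 24 in Usp28 KO libraries, at -0.52 ± 0.43. In mt-Tn and mt-Tc the libraries numbered 2 were the lower ones, opposite to most messenger RNAs.

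The 3 transfer RNAs that lie in a row between mt-Nd4 and mt-Nd5 could be compared side by side. mt-Th (11546 to 11612, histidine) had 70 and 58 counts in CTL and 36 and 11 in Usp28 KO libraries. mt-Ts2 (11613 to 11671, serine) had 38 and 32 counts in CTL and 13 and 4 in Usp28 KO libraries. mt-Tl2 (11671 to 11741, leucine) had 17 and 14 counts in CTL and 17 and 3 in Usp28 KO libraries. Usp28 KO replicate 2 was the lowest library in all 3, while their neighbours mt-Nd4 and mt-Nd5 were higher in it than in Usp28 KO replicate 1. The log2 fold changes were -1.52 ± 0.47, -2.11 ± 0.54 and -0.71 ± 0.67, with edgeR adjusted p of 0.244, 0.161 and 0.753. mt-Tl1 (2676 to 2750, the other leucine transfer RNA), between mt-Rnr2 and mt-Nd1, had 38 and 49 counts in CTL and 17 and 7 in Usp28 KO libraries, at -1.95 ± 0.51 (edgeR adjusted p = 0.162). mt-Tw (4950 to 5016, tryptophan) had 50 and 34 counts in CTL and 20 and 25 in Usp28 KO libraries, at -0.97 ± 0.40 (edgeR adjusted p = 0.384).

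Nuclear RNAs without a poly(A) tail were set beside these values. Of 8 such genes listed, 6 were at 0 in every library, and the sum over the list was 1.54 and 0.820 CPM in CTL and 2.62 and 1.44 CPM in Usp28 KO libraries. Genes of the replication-dependent histone clusters, 70 in the table, summed to 26.1 and 26.7 CPM in CTL and 27.2 and 24.0 CPM in Usp28 KO libraries. Both sums overlapped between the groups, and their part in the ribosomal and transfer RNA values was not tested.

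Nuclear genes that copy, cut and stabilise mitochondrial RNA are the other side of this pathway. The list used here also holds genes of mitochondrial DNA replication and regulators of mitochondrial biogenesis. Of 73 genes listed, 71 were tested, and 0 passed (edgeR adjusted p of 0.05, where 0% of all genes did); 1 was higher and 1 lower at an unadjusted p under 0.05, where 6.86% and 4.34% of all genes were, and 0 were called by DESeq2 or limma-voom. The log2 fold change was below 0 in 49 and above 0 in 22, with a median of -0.11 beside -0.0040 over all genes (-0.055 with upper-quartile scaling and -0.051 with library totals). In 26 of the 71 both Usp28 KO libraries lay below both CTL libraries and in 4 above, where 20.4% and 21.4% of all genes did. Among transcription genes (12 tested, median -0.20), the RNA polymerase gene Polrmt stood at -0.13 ± 0.18 and its partners at -0.030 ± 0.19 for Tfam, which also packs the DNA, -0.43 ± 0.23 for the promoter-opening factor Tfb2m and -0.054 ± 0.19 for the elongation factor Tefm. The lowest p there were those of Rexo2, an exonuclease for very short RNA (-0.37 ± 0.18), Tfb2m, Mterf2 (-0.43 ± 0.27) and Mterf4 (-0.27 ± 0.25).

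Replication genes (15 tested) had a median of 0.043. The mitochondrial topoisomerase gene Top1mt had 7.32 and 7.13 CPM in CTL and 10.7 and 12.2 CPM in Usp28 KO libraries, without overlap, and 0.66 ± 0.24 (edgeR adjusted p = 0.322). Lonp1, a matrix protease, stood at 0.27 ± 0.16, Primpol at 0.32 ± 0.20, the DNA polymerase gene Polg at 0.25 ± 0.17 and the helicase gene Twnk at -0.15 ± 0.17. Among RNA processing genes (25 tested, median -0.11), Fastkd2 had 61.7 CPM in both CTL libraries and 52.0 and 43.0 CPM in Usp28 KO libraries, at -0.38 ± 0.17 (edgeR adjusted p = 0.441). Trmt10c, a subunit of the enzyme that cuts the 5′ ends of the transfer RNAs, stood at -0.39 ± 0.18, Fastkd3 at -0.39 ± 0.19, the tRNA methyltransferase gene Trmt5 at -0.34 ± 0.19 and the poly(A) polymerase gene Mtpap at -0.11 ± 0.21. Among RNA stability genes (10 tested, median -0.14), Lrpprc, whose protein keeps mitochondrial messenger RNAs stable, had 190 and 179 CPM in CTL and 169.6 and 147.6 CPM in Usp28 KO libraries, at -0.22 ± 0.16 (edgeR adjusted p = 0.662). Its partner Slirp stood at 0.44 ± 0.46 on few reads. The RNA decay genes Pnpt1 and Supv3l1 stood at -0.33 ± 0.16 and -0.21 ± 0.16, and Ptcd3, a mitochondrial ribosome gene, at -0.23 ± 0.16. Among 9 regulators of mitochondrial biogenesis (median -0.20), the transcription factor genes Yy1, Gabpa, Gabpb2 and Creb1 stood at -0.29 ± 0.16, -0.28 ± 0.18, -0.25 ± 0.17 and -0.23 ± 0.17.

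Most nuclear subunits of the same complexes had log2 fold changes above 0, and none passed the test. Of 78 nuclear subunit genes listed, 76 were tested and 0 passed (edgeR adjusted p of 0.05; 1 higher and 0 lower at an unadjusted p under 0.05, where 6.86% and 4.34% of all genes were; 0 by DESeq2 and limma-voom). The log2 fold change was above 0 in 58 and below 0 in 18, with a median of 0.14, where 7584 of 15341 genes were above 0. By complex, the nuclear medians were 0.15 for I (36 genes), 0.23 for II (4 genes, all of its subunits being nuclear), 0.13 for III (9), 0.17 for IV (11) and 0.032 for V (16). The mitochondrial medians were -0.93 for I (7 genes), -0.73 for III (mt-Cytb alone), -0.72 for IV (3) and -0.95 for V (2, with mt-Atp8 on few reads). The nuclear median was 0.041 with the GC correction, 0.018 without CTL replicate 2 and -0.029 without Usp28 KO replicate 1. In 11 of the 76 both Usp28 KO libraries lay above both CTL libraries and in 1 below, under the 21.4% and 20.4% of all genes that did.

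Examples with the lowest p in each complex were Ndufa7 of complex I, with 89.5 and 85.2 CPM in CTL and 123.7 and 108 CPM in Usp28 KO libraries, at 0.41 ± 0.16 (edgeR adjusted p = 0.362), and Ndufs5 at 0.45 ± 0.28. In complex II, Sdhb and Sdhd stood at 0.27 ± 0.16 and 0.26 ± 0.18. In complex III, Uqcrq and Uqcr10 stood at 0.34 ± 0.18 and 0.28 ± 0.18, and in complex IV, Cox5a and Cox6a1 at 0.22 ± 0.17 and 0.21 ± 0.17. In complex V, Atp5l stood at -0.29 ± 0.19 and Atp5d at 0.20 ± 0.16. Summed over the list, the nuclear subunits had 9867 and 8758 CPM in CTL and 10332 and 9554 CPM in Usp28 KO libraries. Their library order was the reverse of that of the mitochondrial sum, with which they share each library's scaling: CTL replicate 2 had the lowest nuclear and the highest mitochondrial sum, and Usp28 KO replicate 1 the highest nuclear and the lowest mitochondrial sum.

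**Figure D5:**
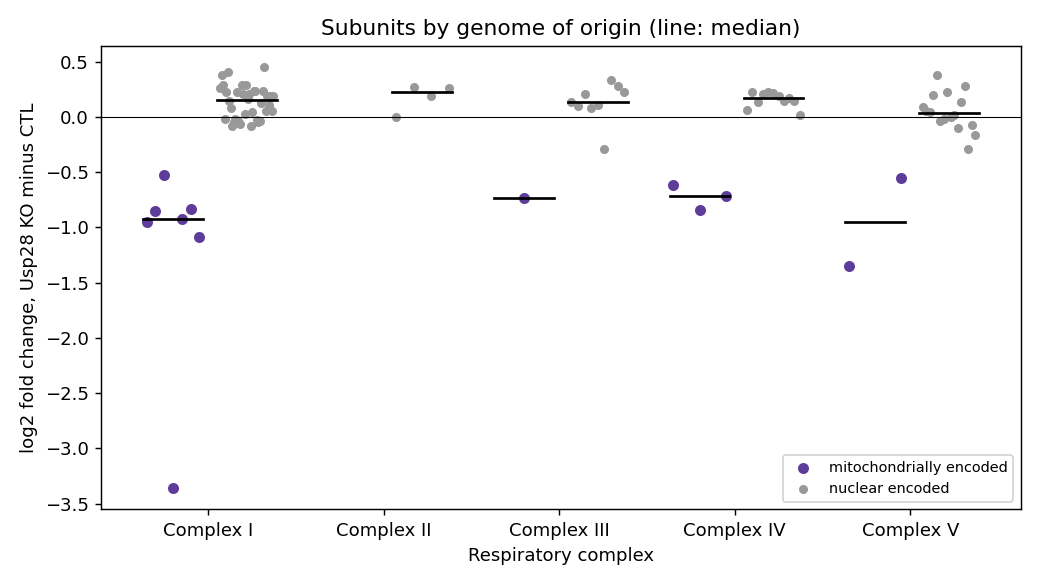
Log2 fold change, Usp28 KO minus CTL, of the tested subunit genes of each respiratory complex, mitochondrially encoded (purple) and nuclear encoded (grey), with the median as a line. Mitochondrial medians are -0.93 (7 genes), -0.73 (1), -0.72 (3) and -0.95 (2) in complexes I, III, IV and V, and nuclear medians are 0.032 to 0.23.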

How the data were processed

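Poly(A) RNA of 4 libraries was analysed, 2 labelled CTL and 2 labelled Usp28 KO, grouped by their titles. The authors deposited a table of raw counts, 1 column a library, with the exon positions and length of each gene. The submitters' processing notes name HISAT2, featureCounts, DESeq2 and mm10 and give no version. Neither the strand setting nor the handling of reads that match several places is stated in the labels. All 37 chrM genes had the same positions in GENCODE M21. Near-identical nuclear copies were sought by aligning the GENCODE M21 chrM transcripts to all others (BLAST 2.17.0, megablast, word size 16), and kept at 99% identity or more over at least 100 bases.

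Counts were tested in R 4.3.3 with edgeR 4.0.16 (filterByExpr with minimum count 10 and minimum total 15, which left 15341 genes, TMM scaling, robust quasi-likelihood fit, Benjamini-Hochberg adjustment over all of them, threshold 0.05). The ± after a log2 fold change is its standard error. Sums over classes and complexes are descriptions without a test. DESeq2 1.42.0, limma-voom (limma 3.58.1), other scalings and filters, a replicate block, a GC correction and the omission of each library were run as alternatives, and the steps were tested on simulated data. The addition of the copies' reads was chosen after seeing the data. The members, gene lists and alternatives were chosen with earlier results of these data known. All 15 messenger and ribosomal RNAs are named, transfer RNAs from 10 counts in a library, 10 fixed pathway genes, up to 4 genes of each pathway list and up to 2 of each nuclear complex by lowest p.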

Additional observations from a re-analysis of the deposited data

How the results depend on the processing

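Against 0 chrM members called lower by edgeR with the filter and no block, 4 were called without a filter (0.436% of all genes), 1 by DESeq2, and 0 to 14 with a library left out, 14 without CTL replicate 1 and 0 without CTL replicate 2. With the replicate number as a block, 17 members were called lower (4.67% of all genes), and 13 (9.3%) with the block and the GC correction together. Over all genes the block gave 1681 calls and the block with GC correction 2285, against 0 without; no filter gave 322 of 27042 genes, DESeq2 140, upper-quartile scaling 21, library totals 29, and a library left out 142 to 346. The libraries share only a replicate number: the labels do not say that it marks a batch, and the difference between replicates 1 and 2 correlated at 0.354 across 15341 genes between the groups. No member was called higher in any of these fits. The median over chrM members kept its sign in all, from -1.36 to -0.12, as did the log2 ratio of the chrM share, -0.68, at -1.13 to -0.079 with a library left out.

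Under the block 1 pathway gene and 1 nuclear subunit were called higher (6.29% of all genes). With GC correction added, 2 pathway genes and 3 subunits were called higher (5.59% of all genes), 10 and 1 lower (9.3%). With a library left out, 0 to 1 subunits were called higher (0.912% of all genes without Usp28 KO replicate 2). The subunits' median then ranged from -0.029 (without Usp28 KO replicate 1) to 0.27. With a library left out, the log2 fold change ranged from -1.43 to 0.15 for mt-Co2, -2.07 to 0.024 for mt-Atp8, -1.69 to 0.13 for mt-Atp6, -1.30 to 0.17 for mt-Co3 and -4.56 to 0.64 for mt-Nd4l. The values above 0 were those without CTL replicate 2 and, for mt-Atp6, without Usp28 KO replicate 1 (0.074), and the cause was not tested. A filter of 50 counts in 2 libraries left mt-Nd3 and mt-Atp8 untested. Depth limits mt-Nd3, mt-Atp8 and the transfer RNAs most.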

Other observations

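Nuclear copies outside the chromosome 1 block match the mitochondrial genes less closely. Gm13340, on chromosome 2 at 22588103 to 22589647, aligns to all 1545 bases of mt-Co1 at 97.6% identity and held 143 and 309 counts in CTL and 111 and 233 in Usp28 KO libraries. Its neighbour Gm13341 aligns to the 684 bases of mt-Co2 at 95.9% and held 10 and 20 counts in CTL and 7 and 23 in Usp28 KO libraries. Gm4076, on chromosome 13, aligns to 52.3% of mt-Nd5 at 95.2% and held 14 and 28 counts in CTL and 6 and 26 in Usp28 KO libraries. In all 3 the libraries numbered 2 had more counts than those numbered 1 of the same group.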
